A study of Homo sapiens with 13 samples.

Results

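MYC and the gene desert around it on chromosome 8 were examined in Nalm6 cells for peaks of LEF1 and TCF7L2. The window ran from 127500 to 131000 kb of chromosome 8 (hg19, 3.5 Mb), and every peak with its summit inside it was taken from each of 12 peak lists. MYC itself lies on the plus strand at 128748 to 128754 kb, so 1248 kb of the window lie upstream of its start and 2252 kb downstream. The window held 5812 of the 3429979 peaks of all lists (0.169%), which merged into 2455 regions wherever peaks of any list overlapped by at least 1 bp. Distances are from the MYC start to a peak's summit, and for a merged region to the median of its summits, with negative values upstream. The position of the MYC start was taken to the nearest kb, so distances near the gene are uncertain by that much.

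MYC encodes a transcription factor that drives growth and division, and it is a classical target of canonical Wnt signalling, in which β-catenin joins TCF/LEF proteins on DNA. LEF1 and TCF7L2 are both such proteins and read closely related DNA motifs. MYC sits in a wide stretch with few coding genes, where distant enhancers are known to act in a tissue-specific way: several described in epithelial tumours lie upstream, and clusters used in blood cells lie far downstream. In the current RefSeq gene order on GRCh38.p14 the nearest coding genes are POU5F1B and then LRATD2 upstream, and GSDMC and then CYRIB downstream. The non-coding PVT1 and CCDC26 genes also lie downstream. No hg19 annotation was used here, so peaks were assigned to no gene other than MYC, and to no exon, intron or UTR.

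Nalm6 is an established human line of B-cell acute lymphoblastic leukaemia. CUT&RUN, in which an antibody tethers a nuclease that releases the DNA near the bound protein, was run with an antibody against LEF1 or against TCF7L2. Treated cells had received 5 µM prednisolone, a glucocorticoid drug, for 24 h, and the others were controls, whose labels give no treatment in one field and a vehicle in another. Each of the 4 groups, LEF1 control, LEF1 prednisolone, TCF7L2 control and TCF7L2 prednisolone, had 3 replicate libraries, from independent experiments according to the series text. All groups came from this 1 cell line, grown in charcoal-stripped serum, so every statement is about that line. An IgG sample of the series was not analysed here, so no IgG background stands beside these values.

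The lists were of unequal length and strength. They held 128863 to 389025 LEF1 peaks and 144091 to 395786 TCF7L2 peaks, and read totals were not used here, so the list is the only measure of depth. Each list was therefore also limited to its 20000 strongest peaks by p-value, called top peaks, and a rank is a peak's place in its own list. The ranks, folds over the modelled background and q-values are the authors' values for a peak or an order made from them, and they describe peaks within a list. TCF7L2 peaks were weak: 50.6% to 78.3% of those in the window had a q-value of 1, against 0 to 19.4% for LEF1. Between 1 and 6 TCF7L2 peaks of a list in the window had a −log10 q of at least 2, against 68 to 154 LEF1 peaks. A top peak of TCF7L2 is thus a weaker call than a top peak of LEF1.

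The window held 203 to 738 LEF1 peaks and 212 to 614 TCF7L2 peaks per list. Among top peaks, LEF1 had 29, 34 and 28 in the control lists and 36, 26 and 26 after prednisolone, and TCF7L2 had 23, 26 and 19 in the control lists and 25, 30 and 27 after prednisolone. Over 855 genome tiles of 3.5 Mb, the median per list was 21 to 22 top peaks for LEF1 and 19 to 23 for TCF7L2, with upper quartiles of 34 to 36 and 31 to 34. All 6 LEF1 lists lay above their median tile, and 1 of them, prednisolone replicate 1, lay above its upper quartile of 34. The TCF7L2 lists lay at or above their median tile and below their upper quartile. Top LEF1 peaks in the window were broad, with a median width of 1336 to 1535 bp per list against 1138 to 1410 bp for all top peaks of those lists. Top TCF7L2 peaks were narrow, at 335 to 516 bp against 405 to 595 bp. The median fold of top peaks in the window was 5.84 to 6.60 for LEF1 and 3.21 to 3.85 for TCF7L2.

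The first comparison asked whether prednisolone changed the share of each factor's top peaks that fell around MYC. It did not pass the test for either factor, and the control and prednisolone lists overlapped for both. For LEF1 the mean share was 0.152% ± 0.0161 (SD, n = 3) in control lists and 0.147% ± 0.0289 (SD, n = 3) in prednisolone lists, a difference of -0.005 percentage points (exact permutation test, two-sided, p = 0.8, adjusted p = 0.8 over 4 tests). For TCF7L2 it was 0.113% ± 0.0176 and 0.137% ± 0.0126, a difference of 0.0233 points (exact permutation p = 0.2, adjusted p = 0.333). With 3 lists against 3 this test cannot go below 0.1, so neither treatment difference could pass 0.05. The same holds with fewer lists. Over both treatments the TCF7L2 share minus that of LEF1 was -0.0242 points, which also missed the threshold (exact permutation within treatments, two-sided, p = 0.085, adjusted p = 0.333, smallest possible 0.005). The treatment effects of both factors differed by 0.0283 points (exact permutation p = 0.25, adjusted p = 0.333).

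**Figure D1:**
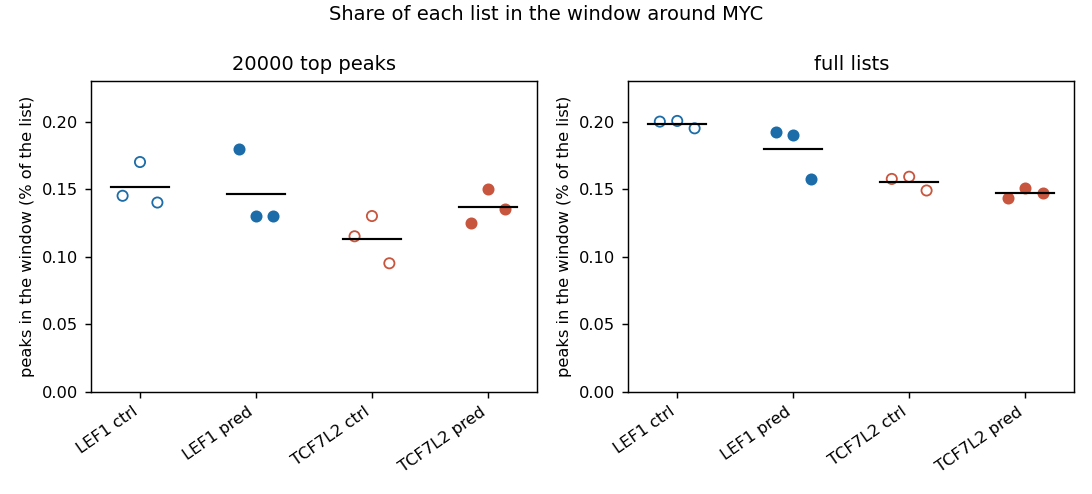
Percentage of a list's peaks that lie in the window around MYC, for the 20000 top peaks (left) and the full lists (right); each point is 1 library, open for control and filled for prednisolone, and bars are means of 3. Control and prednisolone points overlap for both factors among top peaks. In the full lists TCF7L2 sits at 0.143% to 0.159%. There the LEF1 control lists sit at 0.195% to 0.200% and the prednisolone lists at 0.192%, 0.190% and 0.158%, without overlap.

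The difference between the antibodies depended on how far down the lists it was read. In the full lists the TCF7L2 share was lower than the LEF1 share (difference -0.0380 points, exact permutation p = 0.005 before adjustment), and so it was in the 5000 top peaks (difference -0.1 points, exact permutation p = 0.005). Of those 5000, LEF1 lists had 6 to 9 in the window and TCF7L2 lists 2 to 4. The libraries also formed 2 sets by the shortest peak in their list, which was 158 to 167 bp in 6 lists and 187 to 201 bp in the other 6. In LEF1 the lists with the shorter value were control replicate 1 and prednisolone replicates 2 and 3, and in TCF7L2 these same replicates had the longer value. They are called set A here, and the other lists set B, so a set joins lists of opposite length class across the antibodies. For LEF1 the difference after prednisolone was -0.015 points within set A and 0.025 within set B. For TCF7L2 it was 0.0275 and 0.0125. The TCF7L2 to LEF1 difference, which within a set also crosses the length classes, was -0.00875 and -0.0488. The difference of the treatment effects was 0.0425 in set A and -0.0125 in set B. Each set has 1 library of one treatment and 2 of the other per antibody, so no test was made within it.

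At the MYC start itself LEF1 had a peak in every list, and it was a modest one. TCF7L2 had only weak peaks there in the control lists, and after prednisolone a peak in 1 of 3 lists. The strongest LEF1 peak within 2 kb of the start had folds of 3.14, 3.33 and 2.79 in control cells and of 3.87, 3.22 and 2.16 after prednisolone. The means were 3.09 ± 0.276 and 3.09 ± 0.861 (SD, n = 3 each), and the groups overlapped. Its −log10 q was 5.58, 9.43 and 6.21 in control cells and 13.7, 7.23 and 3.99 after prednisolone. It ranked 23068, 12411 and 21199 in the control lists and 8232, 17300 and 26158 in the prednisolone lists, so that it was a top peak in 1 and 2 of them. In 5 of the 6 lists the summit lay between -611 and -210 bp from the start as taken here, and in prednisolone replicate 3 at 203 bp. The start was taken to the nearest kb, so the side on which these summits lie is not settled.

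The TCF7L2 peaks near the start had folds of 1.57, 2.41 and 1.83 in the control lists, with ranks of 238475, 46786 and 115854 and −log10 q of 0, 0.263 and 0.0760. None was a top peak. In prednisolone replicate 1 a narrow peak of 228 bp with its summit at -1523 bp had a fold of 2.64, a rank of 13486 and a −log10 q of 1.13. Within 1 kb of the start none of the 3 prednisolone lists had a TCF7L2 peak. The lists of replicates 2 and 3 held 395786 and 144091 peaks in all. Across the MYC gene, LEF1 lists had 1 to 5 peaks and TCF7L2 lists 0 to 3.

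The strongest LEF1 signal close to MYC lay just past the end of the gene and a short way downstream, not at the start. A region at chr8:128753775-128758080, 7.2 kb downstream of the start and beginning at the gene's last kb, had a top LEF1 peak in all 6 lists. Its folds were 6.82, 6.51 and 6.70 in control cells and 7.95, 7.04 and 6.04 after prednisolone, and its ranks were 2440, 2080 and 2486 against 2092, 5708 and 4989. Control and prednisolone values overlapped on both. TCF7L2 had a peak there in all 6 lists, but at folds of 1.67 to 3.07, and it was a top peak in 1 of them. The TCF7L2 summits spread over 2528 bp.

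A second region at chr8:128775397-128776713, 28.1 kb downstream, had LEF1 folds of 8.30, 10.9 and 11.9 in control cells and of 8.29, 6.85 and 10.2 after prednisolone. LEF1 ranked there at 6136, 3241 and 2231 in control lists and at 7680, 11228 and 3999 after prednisolone, and the groups overlapped. TCF7L2 had a peak in all 6 lists at folds of 2.44 to 3.24, 3 of them top peaks. At 59.3 kb downstream (chr8:128806854-128808693) top peaks were found for TCF7L2 and not for LEF1. TCF7L2 had a peak in 5 of 6 lists, 3 of them top peaks, the best with a fold of 4.64 and rank 2935 in control replicate 3, while LEF1 had a peak in all 6 lists and a top peak in none. The −log10 q there was 1.64 to 4.31 in the 6 LEF1 lists and 0.363 to 5.81 in the 5 TCF7L2 lists.

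**Figure D2:**
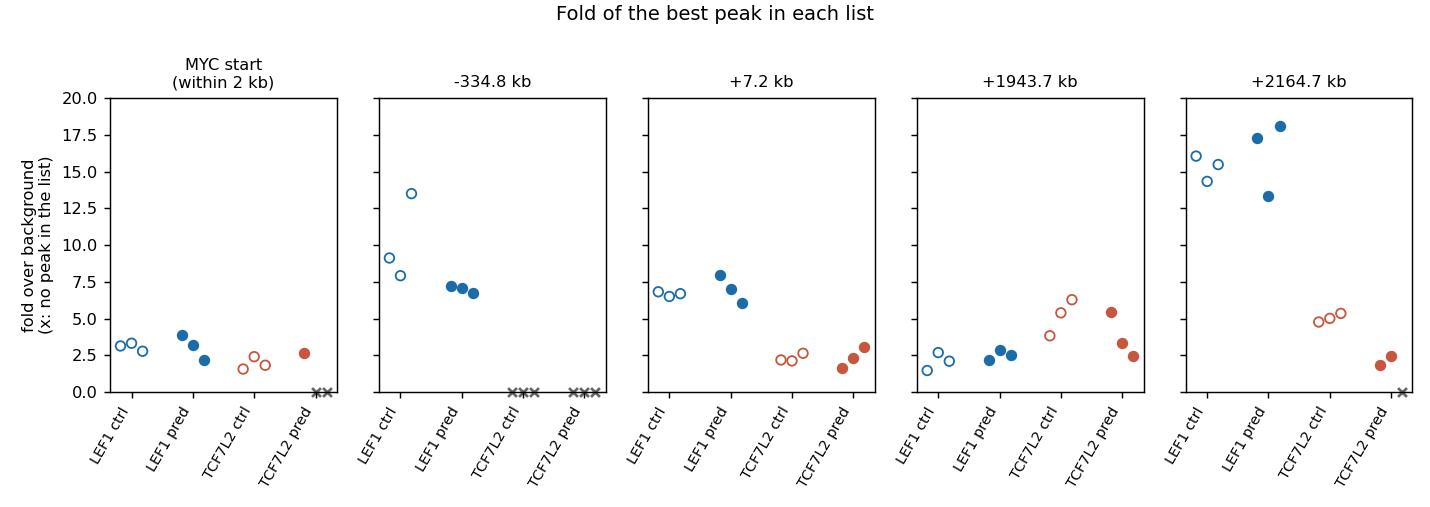
Fold over the modelled background of the best peak of each list in 5 places around MYC; each point is 1 library (open for control, filled for prednisolone, crosses for lists with no peak). LEF1 folds are lowest at the MYC start (2.16 to 3.87) and at 1943.7 kb (1.47 to 2.88), and highest at 2164.7 kb. TCF7L2 has no peak at -334.8 kb. The TCF7L2 folds at 2164.7 kb are 4.77 to 5.35 in control lists and at most 2.46 after prednisolone.

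Upstream of MYC the region that stood out held LEF1 alone. At -334.8 kb (chr8:128411907-128414036) LEF1 had a top peak in all 6 lists, with summits within 95 bp of each other, and TCF7L2 had no peak in any of its 6 full lists. The LEF1 folds were 9.12, 7.92 and 13.5 in control cells and 7.20, 7.05 and 6.73 after prednisolone, means of 10.2 ± 2.94 and 6.99 ± 0.238 (SD, n = 3 each). Ranks were 3036, 3764 and 1424 in the control lists and 7732, 7487 and 7793 after prednisolone. Every control list placed this peak higher than every prednisolone list did. Over the genome this held for 14.8% of LEF1 regions with a top peak in all 6 lists. A peak count of 0 in TCF7L2 lists says only that none passed the p-value of 0.05 at which the lists end.

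Further upstream both factors had peaks in a group of regions between -551 and -525 kb. The LEF1 peak at -550.9 kb (chr8:128196005-128198087) had folds of 5.65, 4.83 and 4.20 in control cells and of 5.91, 7.86 and 5.75 after prednisolone. Every prednisolone value was above every control value, by a margin of 5.75 against 5.65 at the closest. Over the genome this held for 10.7% of LEF1 regions merged from top LEF1 peaks and with a peak in all 6 full lists. The LEF1 folds are the same in the narrower region merged that way. The region at -550.9 kb held a top peak in 5 LEF1 lists and 3 TCF7L2 lists. At -525.2 kb (chr8:128221043-128225384) TCF7L2 had a peak in all 6 lists, 4 of them top peaks. Its folds were 3.87, 3.61 and 3.66 in control cells and 2.76, 2.47 and 3.41 after prednisolone. The TCF7L2 summits spread over 2492 bp. In the narrower region merged from top TCF7L2 peaks alone, the prednisolone folds were 1.57, 2.02 and 3.41. LEF1 folds at that region were 4.59, 5.62 and 4.59 in control cells and 5.51, 2.69 and 1.51 after prednisolone. The regions at -548.1 and -538.8 kb held peaks of both factors in all 12 full lists. Each was a top peak in 2 TCF7L2 lists and in 0 and 1 LEF1 lists. Their TCF7L2 summits spread over 1799 and 4378 bp and those of LEF1 over 912 and 2941 bp. The peaks of the lists there need not be 1 site.

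The best-ranked LEF1 peaks were far from the gene. The best-ranked LEF1 peak of the window lay 1437 to 2165 kb downstream of MYC in every list, at ranks of 588 to 1126. The part of the window more than 1000 kb downstream, 35.8% of its length, held 44.1% to 53.6% of the top LEF1 peaks of a list. Per 100 kb, top LEF1 peaks were nevertheless densest within 50 kb of the start, at 2.50, against 1.50 between 1000 and 1500 kb downstream, 0.953 beyond that and 0.370 between 50 and 500 kb downstream. For TCF7L2 the corresponding densities were 1.17, 0.733, 1.29 and 0.630. These densities are means over the 6 lists of each factor.

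**Figure D3:**
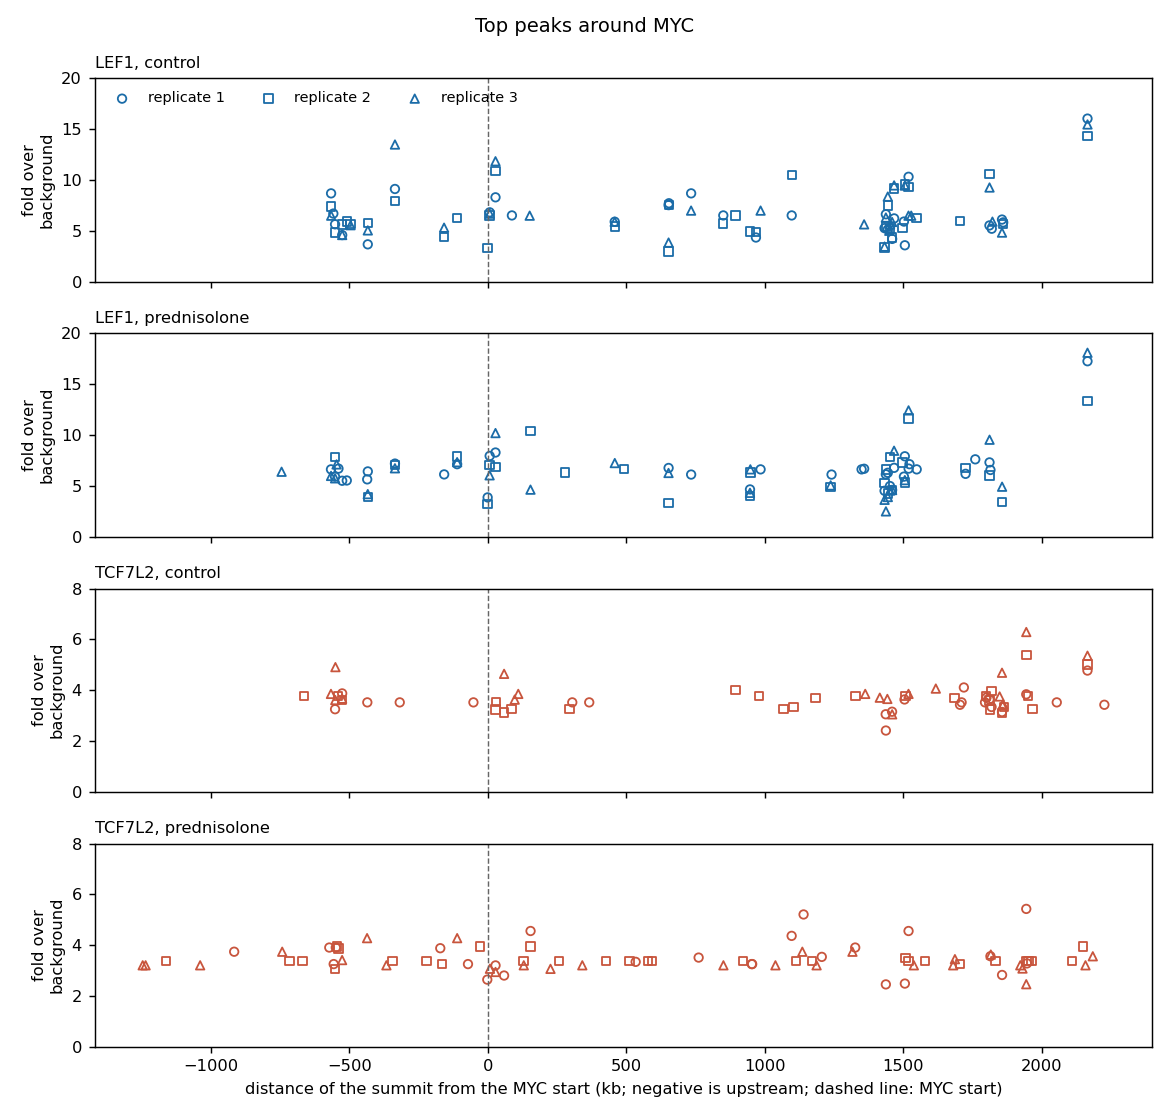
Top peaks of each list by the distance of their summit from the MYC start (x axis, kb) and their fold over the modelled background (y axis, with a smaller range for TCF7L2); symbols are replicates. LEF1 peaks of the 3 replicates coincide near MYC, between 1430 and 1508 kb and at 2164.7 kb, and the TCF7L2 peaks of the prednisolone lists are more scattered.

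One stretch 1430 to 1508 kb downstream (chr8:130178342-130255752, 77.4 kb, delimited after its values were seen) held 7 to 8 top LEF1 peaks in every list. LEF1 peaks of the full lists covered 31.8, 29.9 and 33.9 kb of it in control cells and 29.8, 30.7 and 23.7 kb after prednisolone, which is 30.7% to 43.9% of the stretch. Its region at 1437.0 kb (chr8:130183512-130189596), ranked 851, 1815 and 900 in the control lists and 1435, 1126 and 9619 after prednisolone, and it was the best of the stretch in 3 of the 6 lists. The last value, from prednisolone replicate 3, stood apart from the other 5.

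In the neighbouring region at 1444.0 kb (chr8:130189656-130193956) the ranks were 1882, 749 and 588 in control lists and 2606, 3566 and 4603 after prednisolone, and these did not overlap. The folds there were 5.14, 7.48 and 8.37 against 6.29, 4.27 and 3.91, and these overlapped. Ranks worse in all 3 prednisolone lists were found in 14.8% of LEF1 regions over the genome with a top peak in all 6 lists. Other regions of the stretch had a LEF1 top peak in every list too. At 1432.3 kb (chr8:130178342-130182113) LEF1 folds were 3.39 to 5.27 in control cells and 3.63 to 5.29 after prednisolone. At 1459.5 kb (chr8:130203221-130207738) they were 4.21 to 5.87 and 4.59 to 4.62. At 1505.5 kb (chr8:130248066-130255752) the LEF1 ranks were 9049, 1278 and 1432 in control lists and 1662, 2242 and 1623 after prednisolone.

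TCF7L2 covered less of that stretch: 13.1, 9.61 and 10.0 kb in the control lists and 3.99, 5.55 and 2.16 kb after prednisolone. The 3 control values lay above the 3 prednisolone values, as they did in 8.39% of genome tiles of that length for TCF7L2. For LEF1, whose values in the stretch overlapped, such tiles made up 3.62%. The control lists had 4, 1 and 2 top TCF7L2 peaks in it, and the prednisolone lists 2, 1 and 0. The sum of covered bases moves with the length of a list, and the prednisolone lists included both the longest and the shortest of the 6 TCF7L2 lists.

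The single strongest LEF1 region of the window was at 2164.7 kb (chr8:130911388-130915424). LEF1 folds were 16.0, 14.3 and 15.5 in control cells (15.3 ± 0.876) and 17.3, 13.3 and 18.1 after prednisolone (16.2 ± 2.55, SD, n = 3 each). Its ranks were 643, 1070 and 853 in control lists and 804, 1747 and 648 after prednisolone, and both measures overlapped between treatments. The LEF1 summits of the 6 lists lay within 97 bp of each other.

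In control cells TCF7L2 had a top peak in the same region, with folds of 4.77, 5.02 and 5.35 (5.05 ± 0.293) and ranks of 3867, 3870 and 3847. After prednisolone, replicate 1 had a peak of fold 1.88 at rank 241016, replicate 2 one of fold 2.46 at rank 85578, and replicate 3 none. The region merged from top TCF7L2 peaks alone is chr8:130911842-130912866. It was the 1 TCF7L2 region of 123 in the window (0.813%) with a top peak in all 3 control lists and in no prednisolone list, against 1.24% of TCF7L2 regions over the genome. The pattern was thus no more frequent around MYC than elsewhere. The call rests on the limit of 20000 peaks: in the full lists 1 prednisolone list, that of replicate 2, still had a peak in this narrower region.

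No other region changed in that all-or-none way. Of the 56 LEF1 regions in the window, 0 were gained and 0 lost after prednisolone, against 2.83% and 1.92% of LEF1 regions over the genome. No TCF7L2 region of the 123 was gained, against 0.366%. In bins of 100 kb, the 3 prednisolone lists lay above the 3 control lists in 1 of the 25 bins with a top LEF1 peak (background 4.24%) and in 1 of the 32 bins with a top TCF7L2 peak (background 2.11%). The LEF1 bin lay 1152 to 1252 kb downstream and the TCF7L2 bin 152 to 252 kb downstream, and each went from 0 top peaks in every control list to 1 in every prednisolone list. No bin was lower after prednisolone, against 3.57% of bins for LEF1 and 2.85% for TCF7L2. The 2 bins are 4% and 3.12% of those tested, near their backgrounds, and the counts of 0 are of few regions or bins.

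Regions with a top peak in all 6 lists of a factor could be compared by rank instead, a comparison added after the data were seen. Of the 13 such LEF1 regions, those at -334.8 and 1444.0 kb ranked worse in all 3 prednisolone lists than in any control list, which is 15.4% against 14.8% over the genome. None of the 13 ranked better, against 11.5%. The 1 such TCF7L2 region did neither (backgrounds of 11.4% for worse and 10.7% for better).

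The folds could be compared in regions with a peak in all 6 full lists of a factor, which were 50 of the 56 LEF1 regions and 6 of the 123 TCF7L2 regions. This comparison was also added after the data were seen. For LEF1 the folds were higher in all 3 prednisolone lists in 2 regions, at -550.9 and -110.3 kb (4%, background 10.7%), and lower in 3, at -334.8, 151.4 and 893.8 kb (6%, background 12%). For TCF7L2 they were higher in 0 regions (background 4.56%) and lower in 2 of the 6, at -525.3 and 1856.4 kb (background 15.7%). Non-overlapping LEF1 folds were thus not more frequent around MYC than over the genome, and 6 TCF7L2 regions are too few to read.

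**Figure D4:**
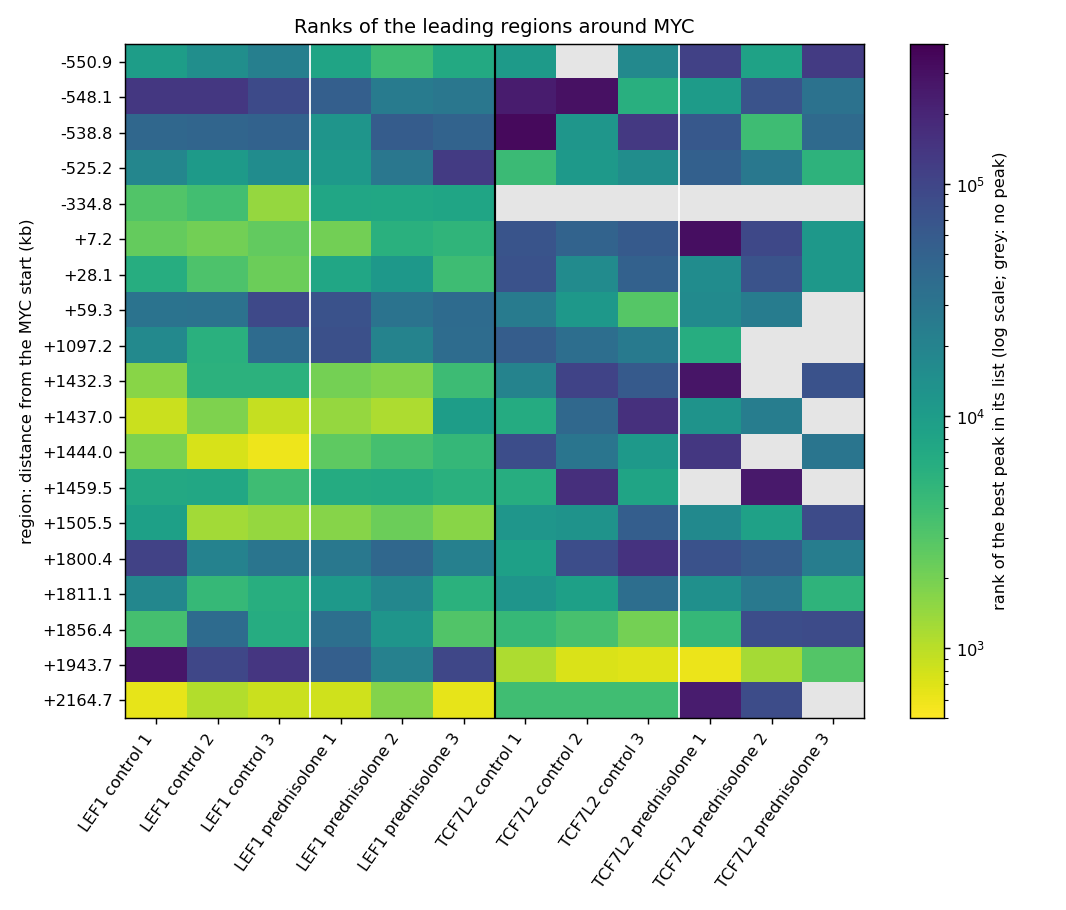
Rank of the best peak of each list in the 19 named regions (rows, by distance from the MYC start in kb; columns are libraries; log colour scale, yellow for the strongest ranks, grey for no peak). LEF1 ranks run from 643 to 1747 at 2164.7 kb and from 588 to 9619 between 1432.3 and 1505.5 kb, while TCF7L2 has its lowest rank of every list at 1943.7 kb.

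The 1 TCF7L2 region that recurred in all 6 lists held no top LEF1 peak. At 1943.7 kb (chr8:130691423-130693255) TCF7L2 had its best peak of the window in all 6 lists, with ranks of 1136, 728 and 692 in control cells and 609, 1224 and 2968 after prednisolone. The folds were 3.84, 5.39 and 6.29 (5.17 ± 1.24) against 5.43, 3.38 and 2.46 (3.76 ± 1.52, SD, n = 3 each), and they overlapped. LEF1 had a peak there in all 6 full lists at folds of 1.47 to 2.88 and ranks of 21036 to 270227, so never a top peak. In prednisolone replicate 2 it fell just outside the limit, with a −log10 q of 6.08 beside 5.52 for TCF7L2. The TCF7L2 summits lay within 100 bp of each other.

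Nearby, TCF7L2 also had repeated peaks at 1856.4 kb (chr8:130603243-130606666), with folds of 3.14, 3.10 and 4.68 in control cells and of 2.83, 1.81 and 1.80 after prednisolone. All 3 control values lay above all 3 prednisolone values. This held for 15.7% of the TCF7L2 regions over the genome whose folds were compared above. The TCF7L2 peak at 1856.4 kb was a top peak in the 3 control lists and in prednisolone replicate 1, at ranks of 4540, 3462, 2018 and 4626. It ranked 81901 and 86602 in prednisolone replicates 2 and 3. LEF1 had a top peak in 4 lists there. At 1811.1 kb (chr8:130557072-130565333) LEF1 had a top peak in 6 lists, with summits within 371 bp of each other. TCF7L2 had a top peak in 4 lists of that merged region, but its summits spread over 5654 bp and are not 1 site. LEF1 folds were 5.53, 10.6 and 9.27 in control cells and 7.31, 6.01 and 9.54 after prednisolone, and TCF7L2 folds were 2.84 to 3.63 over its 6 lists.

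How well the replicates of a factor found the same places differed between the factors. Of the 56 LEF1 regions in the window, 13 had a top peak in all 6 lists (23.2%, genome 20.5%) and 18 in 1 list (32.1%, genome 30.4%). Of the 123 TCF7L2 regions, 1 had a top peak in all 6 lists (0.813%, genome 2.21%) and 108 in 1 list (87.8%, genome 78.1%). Of the 13 LEF1 regions, 8 lay more than 1000 kb downstream, 3 between the MYC start and 1000 kb, and 2 upstream. Beside those already described, they included regions at -432.9 kb (chr8:128312517-128316088), 652.8 kb (chr8:129399260-129403372) and 1518.8 kb (chr8:130265910-130267711).

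The share of top TCF7L2 peaks that lay far downstream was lower in the prednisolone lists, in a comparison chosen after its values were seen and made without a test. The lists had 16, 16 and 12 such peaks more than 1000 kb downstream in control cells and 11, 12 and 13 after prednisolone, which overlap. Elsewhere in the window they had 7, 10 and 7 against 14, 18 and 14, which do not. In control lists 69.6%, 61.5% and 63.2% of the top TCF7L2 peaks of the window lay more than 1000 kb downstream, and after prednisolone 44%, 40% and 48.1%. These shares did not overlap. How often comparable windows of the genome show such shares or counts without overlap was not tested. For LEF1 the shares were 48.3%, 44.1% and 53.6% against 52.8%, 50% and 46.2%, which overlapped. In the full TCF7L2 lists the shares were 39.9%, 42.9% and 42.2% against 37.6%, 36.1% and 38.7%, a smaller gap in the same direction. Peaks equal in p-value and fold at the limit of 20000 filled up to 7599 places of a TCF7L2 list. Up to 8385 equal peaks of a list were left out. Of all such equal peaks of a list, kept or left out, up to 16 lay in the window. Their part in this difference was not tested.

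**Figure D5:**
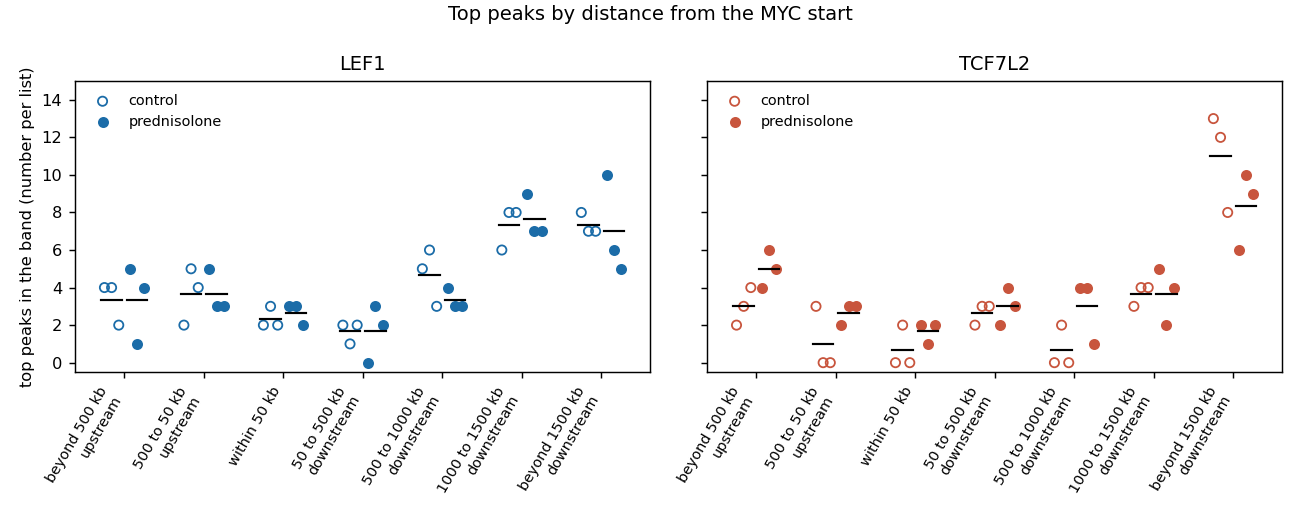
Top peaks per list in 7 bands of distance from the MYC start, for LEF1 (left) and TCF7L2 (right); points are libraries (open for control, filled for prednisolone) and bars are means of 3. Beyond 1500 kb downstream the TCF7L2 lists hold 8 to 13 top peaks in control cells and 6 to 10 after prednisolone, and the bands differ in width.

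The last comparison asked how far both factors shared their reproducible regions around MYC. A consensus region had a top peak in all 3 lists of a group. In control cells 2 of the 17 LEF1 consensus regions overlapped a TCF7L2 consensus region, at -525.3 and 2164.7 kb, which is 11.8% (exact Clopper-Pearson 95% interval 1.46% to 36.4%) against 20.8% over the genome. After prednisolone it was 0 of 17 (interval 0 to 19.5%) against 10.7%. The intervals, which cover counting error only, include the control genome share and the prednisolone one. TCF7L2 had 4 consensus regions in the window in control cells and 1, at 1943.7 kb, after prednisolone. The overlap could not be larger than that. Over the genome TCF7L2 had 5088 consensus regions in control cells and 2803 after prednisolone.

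Over both treatments, 3 of 144 regions in the window had a top peak in all 6 LEF1 lists and in no TCF7L2 list (2.08%, background 1.56%), at -334.8, 652.8 and 1432.3 kb. The reverse pattern was seen in 1 of the 144, the region at 1943.7 kb (0.694%, background 0.638%). No region had a top peak in all 12 lists (background 0.716%). In the full lists 15 of the 2455 regions had a peak in all 12, a count for which no genome share is given here. Among them were those at 7.2, 28.1 and 1505.5 kb. There the TCF7L2 summits spread over 2528, 349 and 4204 bp, so a merged region need not be 1 site.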

How the data were processed

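The window, the regions and the lists were chosen with earlier results of these data known. The authors called peaks per sample with MACS2 on hg19, per the submitters' processing notes. The aligner, the MACS2 version and the control library are not given in the sources used here. The deposited lists give each peak a fold (a ratio over modelled background), a −log10 p-value, a −log10 q-value and a summit, and they end at a p-value of 0.05. Peaks were ordered by −log10 p, then fold, with equal peaks in seeded random order, and the first 20000 of each list were used as top peaks (Python 3.11.15, pandas 2.3.3, numpy 2.4.6, scipy 1.17.1). Groups followed the labels. Shares were compared by exact permutation tests with Benjamini-Hochberg adjustment over 4 tests. Regions called gained had a top peak in all 3 prednisolone lists and no control list, lost the reverse. The bin calls were checked on simulated data. The regions named were the MYC start, the 8 best by worst rank in each group with a peak in all 3 of its lists, and every gained or lost region or bin; others named were chosen after their values were seen. The labels do not tell whether replicates share a culture beyond calling them independent experiments, and same-numbered lists did not deviate together. At most 0.107% of chromosome 8 intervals were identical between any 2 lists. Alternatives were list length, q-value, ties, overlap, bin size, merging and each library left out. Sequences of the window are not reported here.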

Additional observations from a re-analysis of the deposited data

How the results depend on the processing

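Of 166 recomputed values, 114 kept direction and side of the threshold or stayed near the first value. Neither factor's treatment test could change side. Another 9 tested differences changed sign, 7 newly passed 0.05 before adjustment and 36 untested values moved (2 in sign, set B). Causes were not tested. In full lists the LEF1 treatment difference was -0.0186 points, and the treatment groups did not overlap (exact permutation p = 0.1, the smallest possible). How often other windows of the genome show this was not tested. The LEF1 treatment difference became 0.00315 points at a −log10 q of at least 2 and 0.025 within set B, and ranged from -0.0217 to 0.00417 with 1 library left out, turning positive without control replicate 2 (0.00417) or prednisolone replicate 2 or 3 (0.00333 each). The TCF7L2 difference became -0.00797 in full lists, -0.02 in the 5000 top peaks and -0.0151 by q, and ranged from 0.0142 to 0.0317 with 1 library left out. TCF7L2 minus LEF1 was -0.0380 in full lists, -0.1 in the 5000 top peaks, -0.112 by q and -0.0764 of covered bases (exact permutation p = 0.005 each), -0.0302 with equal peaks left out (p = 0.025, exact permutation) and -0.0488 within set B; with 1 library left out it ranged from -0.0283 to -0.0158. The difference of treatment effects was -0.0133 in the 5000 top peaks, -0.0182 by q, 0.0481 of covered bases (exact permutation p = 0.02) and -0.0125 within set B. It ranged from 0.0192 to 0.045, the latter without LEF1 prednisolone replicate 1 (exact permutation p = 0.025).

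Non-overlapping bins numbered 3 (LEF1) and 4 (TCF7L2) in full lists (genome 8.98% and 10.7%). With 50 kb bins there were 0 for TCF7L2 (genome 3.68%). The number of bins or regions tested in the window under each of these settings is not given here. With 1 library left out they ranged from 1 to 5 for LEF1 (4 and 3 without control replicates 2 and 3, 5 without prednisolone replicate 1) and from 2 to 5 for TCF7L2 (3, 5 and 2 without control replicates 1, 2 and 3, and 2, 2 and 4 without those of prednisolone). LEF1 regions gained were 1 in full lists (genome 0.282%) and 2 by q (genome 1.08%). Those lost were 11 in full lists (genome 0.710%), 1 in the 5000 top peaks (genome 3.09%) and 5 by q (genome 1.16%). TCF7L2 regions gained were 2 and lost 5 in full lists (genome 0.126% and 0.439%). When the region had to be absent from full lists, 0 were lost (genome 0.197%). With 1 library left out, LEF1 regions gained were 0 to 2 (genome 3.87% to 6.23%). They were 2 without control replicate 2 or prednisolone 1, and 1 without prednisolone 3. LEF1 regions lost were 0 to 4 (genome 2.70% to 4.17%). They were 4 without control 3, and 1 without control 1 or prednisolone 1 or 3. TCF7L2 regions gained were 0 to 1 (genome 0.539% to 1.08%), with 1 without prednisolone 3. Those lost were 1 to 3 (genome 1.77% to 3.20%). They were 3 without control 3, and 2 without control 2 or prednisolone 1 or 3. The consensus overlap ranged from 8.70% to 17.6% in control cells and from 0 to 5.88% after prednisolone. Within 1 kb of the MYC start, 0 TCF7L2 prednisolone lists had a peak.

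Same-numbered lists had correlations of -0.110 to -0.00320 over 12 pairs, which cannot exclude pairing. In a replicate block fit, the exact permutation p was 0.75 for LEF1 (difference -0.005), 0.25 for TCF7L2 (0.0233), 0.125 for TCF7L2 minus LEF1 (-0.0242) and 0.25 for the difference of treatment effects (0.0283). Depth is known only through list length, and the weak q-values of TCF7L2 limit what its absent peaks show.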
